A study of Mus musculus with 8 samples.

Results

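The genes described here carry glucose into the cell, break it down to pyruvate and lactate, export the lactate, or answer to the hypoxia-inducible factors (HIFs). They were taken by name from a table of 24421 mouse genes as 35 symbols, all of which the table held, and 34 of them reached at least 1 CPM, the unit of read counts scaled to the total of each library, in at least 2 of 8 libraries. The member below that level was Eno1, listed at 0 to 0.0841 CPM. Bone marrow macrophages of 2 genotypes were compared, wild type (WT) and Rbpj f/f;LysMCre, in which flox alleles of Rbpj are cut by Cre made from the LysM (Lyz2) locus of myeloid cells. Cells of both genotypes were sampled without TNF (day 0) or 2 days into treatment with 40 ng/ml TNF, which makes 4 groups of 2 libraries. The controls are labelled WT, and whether they carry flox alleles or Cre was not stated in the labels. Because no untreated group was sampled at 2 days, the effects of TNF and of time in culture cannot be told apart, and "TNF" below stands for both. The labels do not tie the libraries to separate animals, and the p-values below measure only how far these samples spread, which may be technical.

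Glucose enters macrophages through facilitative transporters of the SLC2 family and is held inside by hexokinases, which phosphorylate it. Phosphofructokinase-1 commits the sugar to glycolysis and is driven by a fructose bisphosphate signal that the PFKFB enzymes make and remove. Lactate dehydrogenase turns pyruvate into lactate, which leaves through monocarboxylate transporters. HIF-1 is a pair of subunits, of which HIF-1α (Hif1a) is hydroxylated by the EGLN enzymes and destroyed while oxygen is present. In macrophages that respond to inflammatory signals HIF-1 also acts in normal oxygen, and most of the genes here are known HIF-1 targets. Rbpj encodes RBP-J, the transcription factor through which Notch receptors act on DNA.

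Libraries held from 9855859 to 35653203 reads in genes. Rbpj stood at 215 and 216 CPM in untreated wild-type libraries, 226 and 178 in wild type with TNF, 38.9 and 31.8 in untreated knockout libraries and 30.03 and 21.4 in the knockout with TNF, so every knockout library lay below every wild-type library and a remainder of Rbpj RNA was left. The 7 macrophage markers were all detected, with summed levels of 4560.3 to 9015 CPM. The 9 osteoclast markers summed to 144 to 248 CPM at day 0, 4958 to 6574 in wild type with TNF and 18773 to 45625 in the knockout with TNF. Stromal markers, of which 5 of 6 were detected, summed to 116 to 179 CPM in the replicate 1 libraries and 3.91 to 32.7 in the replicate 2 libraries. The 8 neutrophil markers summed to 145 and 187 CPM in replicate 1 at day 0 and 836 and 1006 in replicate 2. In limma with a block for the replicate number, 6 of the 8 fell with TNF in wild type and 7 in the knockout. With group alone, and no block, 1 and 5 did. The 3 monocyte markers summed to 87.1 to 232 CPM at day 0 and 6.49 to 30.1 with TNF, and with the block 1 of 3 fell in wild type and 3 in the knockout. Dendritic cell markers, of which 3 of 4 were detected, summed to 10.8 to 81.9 CPM at day 0 and 56.5 to 558 with TNF, and with the block 1 rose in each genotype. Of the macrophage markers 3 fell with TNF in the knockout with the block and 1 with group alone, and after TNF 2 were lower in the knockout than in wild type with the block. Of all genes tested, the block passed 4.71% as lower and 5.54% as higher with TNF in wild type. In the knockout it passed 13.7% and 12.2%, and after TNF 3.75% were lower in the knockout. With group alone 0.369% fell with TNF in wild type and 2.01% in the knockout. The B lymphoid, T and NK, erythroid and mast cell lists each summed to at most 10.2 CPM in any library. The erythroid markers Hba-a1 and Hbb-bs were at 0 in all 8. What part these cells had in any result was not tested.

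HIF-1 binds the core of the hypoxia response element, which was searched for here in its form ACGTG and in the variant form GCGTG. Both strands were searched, in RefSeq promoter windows of 300 bases, 250 before and 50 after each start, on GRCm38.p6. Promoters were found for 33 of the 35 members, all but Bnip3l and Ndrg1. A core was present in 31 of these 33 genes (93.9%) and in 39 of their 47 promoters (83.0%). Of all 32851 RefSeq promoters 43.8% held one, and among the 12410 promoters of genes past the CPM filter 61.3% did. Counted by gene, as in the 93.9%, the shares were 46.7% of all 27025 genes and 67.3% of genes past the filter with a promoter. The members' promoters had a median of 21 CG pairs, against 20 for genes past the filter and 7 for all promoters, and both core spellings contain CG. The RBP-J core GTGGGAA, on either strand, was found in 1 member, the aldolase gene Aldoc (2 of the 47 promoters, 4.26%, against 6.38% of all). A match is a run of letters and says nothing of binding in these cells. Stretches around 1 or more cores are shown for the 7 members on which the results below turn, each read 5′ to 3′ on the strand of the gene, with the core in capitals, where CACGT and CACGC are the cores of the opposite strand.

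Slc2a1, chr4:119108639-119108733, plus strand: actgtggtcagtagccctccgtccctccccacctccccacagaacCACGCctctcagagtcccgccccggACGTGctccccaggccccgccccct

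Hk3, chr13:55021492-55021586, minus strand: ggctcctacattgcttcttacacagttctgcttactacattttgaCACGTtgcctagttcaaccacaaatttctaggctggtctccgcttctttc

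Pfkl, chr10:78009857-78009951, minus strand: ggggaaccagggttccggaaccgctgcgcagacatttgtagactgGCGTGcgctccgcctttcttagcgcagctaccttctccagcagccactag

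Pfkfb3, chr2:11553940-11554034, minus strand: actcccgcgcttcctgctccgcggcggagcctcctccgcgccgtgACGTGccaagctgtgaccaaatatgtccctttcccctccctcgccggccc

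Ldhb, chr6:142508034-142508128, minus strand: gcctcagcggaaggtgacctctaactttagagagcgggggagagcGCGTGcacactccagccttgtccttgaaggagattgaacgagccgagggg

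Slc16a3, chr11:120948995-120949066, plus strand: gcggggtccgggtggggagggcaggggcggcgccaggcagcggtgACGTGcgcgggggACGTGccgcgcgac

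Hif1a, chr12:73907687-73907781, plus strand: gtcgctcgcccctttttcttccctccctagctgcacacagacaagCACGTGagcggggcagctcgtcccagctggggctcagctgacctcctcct

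The stretch of Slc16a3 held 2 cores and that of Slc2a1 held 2. In the stretch of Hif1a the spellings of the 2 strands overlapped. In the other 4 stretches there was 1 core. RefSeq lists several starts for some genes, so a stretch can lie inside the gene bounds given below, which cover all transcripts.

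The 34 members split between the libraries numbered 1 and 2, which here are taken as the 2 independent experiments of the series. In replicate 2, 27 of 34 members (79.4%) were lower than in replicate 1 in all 4 groups, against 36.4% of all genes. Pfkfb4 and the mitophagy receptor gene Bnip3l were higher in replicate 2 in all 4 groups (5.88% of members, 22.7% of all genes), with the 2 wild-type day 0 libraries of Pfkfb4 equal to 3 digits (43.9 CPM). The remaining 5, Pfkfb3, Aldoc, Ldhb, Hif1a and Pdk1, went either way. The members' median difference, replicate 2 minus replicate 1 on the log2 scale, was -1.21 in wild type at day 0, -1.23 with TNF, -1.15 in the knockout at day 0 and -0.77 with TNF, where the medians of all genes were -0.05, -0.27, -0.10 and -0.16. The 21 glycolytic members together took 9948 CPM in replicate 1 and 3850.4 in replicate 2 of wild type at day 0. The stromal marker sum was also higher in replicate 1 in every group and the neutrophil sum was higher in replicate 2 (with TNF 60.8 and 139 CPM in wild type, 33.8 and 50.2 in the knockout), and their part in this split was not tested. Each test is therefore given from 2 fits, limma with group alone and limma with a block for the replicate number, in which the mean difference between the experiments leaves the error.

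With TNF, wild-type macrophages had more RNA of the transporter genes Slc2a1 and Slc16a3, of Pfkl and of Hif1a, and less of Hk3. Under the block these 5 of 34 members passed the test (adjusted p under 0.05, Benjamini-Hochberg over all 12194 genes), 4 higher and 1 lower, against 10.3% of all genes (5.54% higher, 4.71% lower). With group alone limma passed 0 of 34, against 1.18% of all genes (0.812% higher, 0.369% lower). At an unadjusted p under 0.05 it had 2 members and 1478 of 12194 genes. DESeq2, fitted by group alone here and below, passed 1 member, Hif1a, and 874 of 12194 genes. In the knockout, with the block, Hk1, Pfkp, Pfkm and Ldhb rose and Hk3, Pfkfb3, P4ha1 and P4ha2 fell, which is 8 of 34 against 25.9% of all genes (12.2% higher, 13.7% lower). With group alone Ldhb was the 1 member that passed, against 5.1% of all genes (3.09% higher, 2.01% lower). The members' share in the knockout was thus near that of all genes.

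After TNF, 7 members were lower in the knockout than in wild type under the block and 0 higher: Slc2a1, Hk3, Pfkl, Pfkfb3, Pfkfb4, Slc16a3 and Hif1a. Without knockout TNF replicate 1 the blocked fit went both ways, with Pfkp, Ldhb and Pdk1 higher in the knockout and Hk3, Slc16a3 and Hif1a lower. That fit leaves 1 library in the knockout TNF group and is not set against all genes here. With no library left out, the blocked fit passed 9.28% of all genes (5.53% higher, 3.75% lower). With group alone 0 members and 0.0082% of genes passed (0.0082% higher, 0% lower). At an unadjusted p under 0.05 limma with group alone had 4 of 34 members and 1372 of 12194 genes. DESeq2 passed 2 members, Hif1a and Pfkfb3, and 593 of 12194 genes. At day 0, 0 members passed in either fit, as did 0% of all genes with group alone and 0.0082% with the block (0% higher, 0.0082% lower). The 1 gene lower with the block was Rbpj itself (limma adjusted p = 0.0264). With group alone limma called Rbpj neither at day 0 nor after TNF, so members that did not pass may still differ. For the difference of the 2 TNF responses 0 members and 0% of genes passed in either fit, so limma showed no member's response to differ between the genotypes. DESeq2 passed 1 member, Pfkfb3, and 78 of 12194 genes, while edgeR by group alone passed 0 members and 0 genes. Counts of members at an unadjusted p under 0.05 in limma were 2 with group alone and 11 with the block for that difference, beside 689 and 2192 of 12194 genes. At day 0 they were 1 and 2, beside 164 and 729 genes, and DESeq2 passed 0 members and 24 genes. Calls lost with 1 library left out are given by gene below. For the knockout after TNF, the blocked fit without wild-type TNF replicate 2 lost the call of Rbpj as well. The loss of a call in that fit is thus not particular to the gene named. In these bulk samples fewer cells of a kind and less RNA per cell cannot be told apart.

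**Figure D1:**
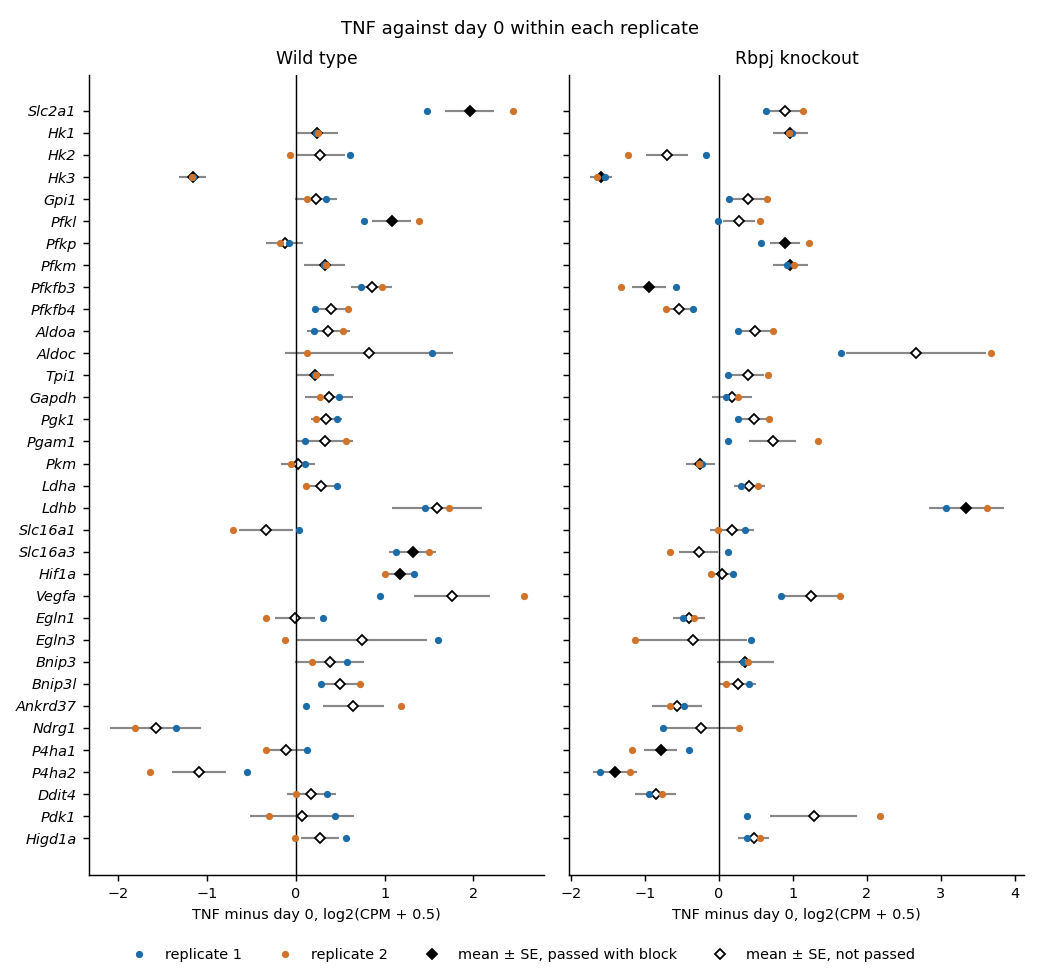
TNF minus day 0 on the log2(CPM + 0.5) scale for 34 members in wild type and knockout, with 1 point per replicate and a diamond for the mean ± SE of the limma fit with the block, filled where the member passed the test. In wild type 5 diamonds are filled and in the knockout 8.

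Slc2a1 encodes GLUT1, the main glucose carrier of activated macrophages (GRCm38 chromosome 4, 119108711 to 119137983, plus strand). In the order replicate 1 and replicate 2, which holds for all values below, it stood at 143 and 32.8 CPM in untreated wild-type libraries, 400.0 and 180.1 in wild type with TNF, 129 and 25.9 in untreated knockout libraries and 201 and 57.6 in the knockout with TNF. Both wild-type TNF libraries lay above both day 0 libraries, although replicate 2 was the lower of the pair in every group. In the knockout the TNF and day 0 libraries overlapped. The log2 difference with TNF, on the scale of log2(CPM + 0.5) and with its SE from the blocked fit of 2 libraries a group, was 1.96 ± 0.28 (limma adjusted p = 0.0103 with the block, 0.577 without) in wild type, a 3.89-fold rise, and 0.89 ± 0.28 (limma adjusted p = 0.057 with the block, 0.753 without) in the knockout. The wild-type call was lost without wild-type day 0 replicate 2 (0.0814) or wild-type TNF replicate 2 (0.0501). After TNF the knockout was lower, with a log2 difference of -1.31 ± 0.28 (limma adjusted p = 0.0391 with the block, 0.821 without). That call was lost without any library but wild-type TNF replicate 1 (adjusted p = 0.0549 to 0.211 in limma), and with TMM scaling (0.0617), median-ratio scaling (0.0583) or edgeR with the block (0.067).

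Of the 3 hexokinase genes, Hk3 fell in both genotypes and Hk1 rose in the knockout with the block. Hk2 passed in neither. Hk3, whose enzyme is typical of myeloid cells, stood at 685 and 324 CPM in untreated wild-type libraries, 308 and 144 in wild type with TNF, 496 and 207 in untreated knockout libraries and 171 and 65.9 in the knockout with TNF. In each genotype every TNF library was below every day 0 library. Hk3 fell, with a log2 difference of -1.16 ± 0.15 (limma adjusted p = 0.00796 with the block, 0.633 without) in wild type and -1.59 ± 0.15 (limma adjusted p = 0.00161 with the block, 0.279 without) in the knockout. The wild-type call was lost without wild-type day 0 replicate 2 (0.071) or wild-type TNF replicate 2 (0.0571), and the knockout call held without any 1 library. After TNF the knockout libraries overlapped the wild-type ones, and within replicates the knockout was lower, with a log2 difference of -0.99 ± 0.15 (limma adjusted p = 0.022 with the block, 0.752 without), a call lost without wild-type TNF replicate 1 (0.0558) or replicate 2 (0.186) or knockout TNF replicate 2 (0.141).

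Hk1, the broadly expressed hexokinase held at mitochondria, stood at 209.7 and 101 CPM in untreated wild-type libraries, 246 and 121 in wild type with TNF, 184 and 146 in untreated knockout libraries and 364 and 282 in the knockout with TNF. The 2 knockout TNF libraries were the highest of the 8. Hk1 rose in the knockout by 0.97 ± 0.23 (limma adjusted p = 0.0272 with the block, 0.334 without) and differed by 0.24 ± 0.23 (limma adjusted p = 0.544 with the block, 0.974 without) in wild type. The call was lost without knockout day 0 replicate 1 (0.169) or replicate 2 (0.0693) or knockout TNF replicate 2 (0.159). Hk2, the inducible hexokinase and a HIF-1 target, stood at 88.9 and 73.7 CPM in untreated wild-type libraries, 136 and 70.7 in wild type with TNF, 106 and 94.0 in untreated knockout libraries and 93.8 and 39.9 in the knockout with TNF. It passed no test, with 0.28 ± 0.28 (limma adjusted p = 0.567 with the block, 0.97 without) in wild type and -0.70 ± 0.28 (limma adjusted p = 0.111 with the block, 0.511 without) in the knockout. Both knockout day 0 libraries of Hk2 were above both wild-type ones, with a difference of 0.30 ± 0.28 (limma adjusted p = 0.983 with the block, 1 without).

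Per kilobase of exon, Hk3 made up 82.5 and 78.4% of the summed hexokinase level in wild type at day 0 and 61.8 and 60.1% with TNF. In the knockout its share was 77.4 and 63.2% at day 0 and 44.3 and 31.1% with TNF. The share of Hk1 was 10.9 and 10.6% and then 21.4 and 21.7% in wild type, and 12.4 and 19.2% and then 40.7 and 57.3% in the knockout. In both knockout libraries with TNF Hk1 thus took a share above that of any other group. In replicate 1 the order of Hk1 and Hk3 depended on the length used: with the longest transcript in place of all exons Hk1 took 54.8% and Hk3 34.2%. These shares describe the libraries and were not tested.

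**Figure D2:**
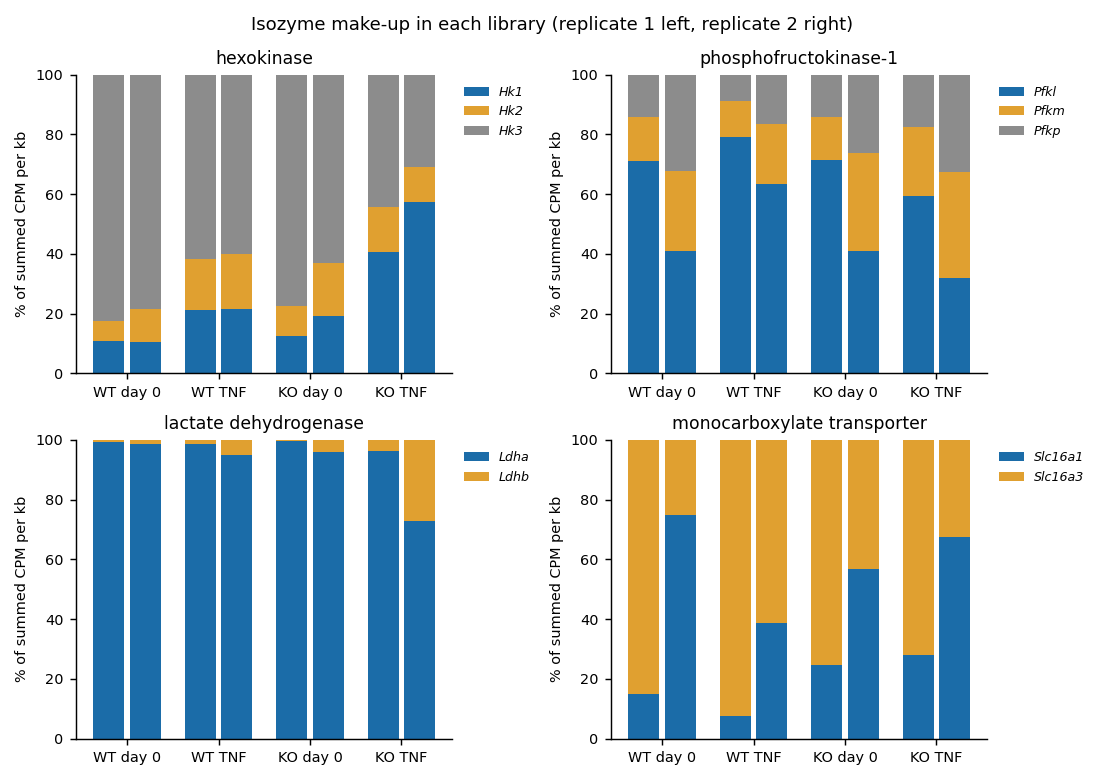
Share of each isozyme gene in its family's summed CPM per kilobase of exon (percent, stacked bars from 0 to 100) in each of the 8 libraries, for 4 families. The Hk3 share of the hexokinases is 82.5% and 78.4% in wild type at day 0 and 44.3% and 31.1% in the knockout with TNF.

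Phosphofructokinase-1 is built from 3 gene products. The liver form Pfkl (GRCm38 chromosome 10, 77986947 to 78010083, minus strand) stood at 249 and 35.2 CPM in untreated wild-type libraries, 424 and 93.3 in wild type with TNF, 200.02 and 33.5 in untreated knockout libraries and 199 and 49.3 in the knockout with TNF. Replicate 1 was several times higher than replicate 2 in every group, so no pair of groups was free of overlap. Within replicates Pfkl rose with TNF in wild type by 1.08 ± 0.22 (limma adjusted p = 0.0303 with the block, 0.928 without) and differed by 0.27 ± 0.22 (limma adjusted p = 0.393 with the block, 0.959 without) in the knockout. The wild-type call was lost without any of 5 libraries, wild-type day 0 replicate 2 (0.19), wild-type TNF replicate 1 (0.0804) or replicate 2 (0.217) or knockout day 0 replicate 1 (0.0552) or replicate 2 (0.0558), and in edgeR with the block (adjusted p = 0.0549). After TNF the knockout was lower, with a log2 difference of -1.002 ± 0.22 (limma adjusted p = 0.0412 with the block, 0.959 without), lost without wild-type TNF replicate 1 (0.0883) or replicate 2 (0.284), knockout day 0 replicate 1 (0.0743) or replicate 2 (0.0743) or knockout TNF replicate 1 (0.119) or replicate 2 (0.121), and under TMM scaling (0.0672), median-ratio scaling (0.0607) or edgeR (0.078) with the block.

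The platelet form Pfkp stood at 98.8 and 55.8 CPM in untreated wild-type libraries, 94.0 and 49.3 in wild type with TNF, 79.1 and 43.2 in untreated knockout libraries and 118 and 101 in the knockout with TNF. The muscle form Pfkm stood at 26.2 and 11.6 CPM in untreated wild-type libraries, 32.8 and 14.8 in wild type with TNF, 20.2 and 13.4 in untreated knockout libraries and 38.7 and 27.6 in the knockout with TNF. For both, the 2 knockout TNF libraries were above the 2 knockout day 0 libraries. Pfkp rose in the knockout by 0.89 ± 0.21 (limma adjusted p = 0.0236 with the block, 0.369 without) and Pfkm by 0.97 ± 0.23 (limma adjusted p = 0.0272 with the block, 0.412 without). Their wild-type differences were -0.12 ± 0.21 and 0.33 ± 0.23 (SE with the block), neither of which passed. Leaving out knockout day 0 replicate 1 (0.0819) or replicate 2 (0.172) or knockout TNF replicate 2 (0.117) ended the Pfkp call, and leaving out knockout day 0 replicate 1 (0.168) or replicate 2 (0.0961) or knockout TNF replicate 2 (0.17) that of Pfkm. Per kilobase Pfkl made up 71.0 and 40.8% of the 3 in wild type at day 0, 79.1 and 63.3% with TNF, 71.5 and 40.9% in the knockout at day 0 and 59.4 and 31.8% with TNF. Its share was higher in replicate 1 in each group.

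Pfkfb3, whose kinase makes the activator of phosphofructokinase-1 (GRCm38 chromosome 2, 11471433 to 11554077, minus strand), stood at 72.7 and 57.1 CPM in untreated wild-type libraries, 122 and 113 in wild type with TNF, 84.8 and 124 in untreated knockout libraries and 56.6 and 49.6 in the knockout with TNF. With TNF both wild-type libraries were above, and both knockout libraries below, the day 0 libraries of their genotype. Both knockout libraries were above wild type at day 0 and below it with TNF. Its 2 libraries per group lay closer together than those of Pfkl. Pfkfb3 fell in the knockout, with a log2 difference of -0.95 ± 0.23 (limma adjusted p = 0.0285 with the block, 0.11 without) and was higher in wild type by 0.86 ± 0.23 (limma adjusted p = 0.0669 with the block, 0.253 without), which did not pass. The knockout call was lost without wild-type TNF replicate 1 (0.0515) or replicate 2 (0.0513), knockout day 0 replicate 2 (0.186) or knockout TNF replicate 1 (0.0625) or replicate 2 (0.152). After TNF it was lower in the knockout, with a log2 difference of -1.14 ± 0.23 (limma adjusted p = 0.037 with the block, 0.196 without), a call lost without wild-type TNF replicate 1 (0.12) or replicate 2 (0.214) or knockout TNF replicate 1 (0.0627) or replicate 2 (0.215), and at day 0 the difference was 0.67 ± 0.23 (limma adjusted p = 0.737 with the block, 1 without). The difference of its TNF responses, knockout minus wild type, was -1.80 ± 0.33 (limma adjusted p = 0.106 with the block, 0.641 without), and DESeq2 called it (adjusted p = 0.024).

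Pfkfb4, another enzyme of this kind, stood at 43.9 and 43.9 CPM in untreated wild-type libraries, 51.0 and 66.3 in wild type with TNF, 33.7 and 54.2 in untreated knockout libraries and 26.3 and 32.7 in the knockout with TNF. Its libraries with TNF again lay above day 0 in wild type and below it in the knockout. The differences with TNF were 0.40 ± 0.19 (limma adjusted p = 0.232 with the block, 0.771 without) and -0.54 ± 0.19 (limma adjusted p = 0.0884 with the block, 0.435 without), and neither passed. Among TNF libraries the knockout was lower, with a log2 difference of -0.98 ± 0.19 (limma adjusted p = 0.0351 with the block, 0.296 without). Without any of 6 libraries, wild-type TNF replicate 1 (0.0971) or replicate 2 (0.226), knockout day 0 replicate 1 (0.0545) or replicate 2 (0.0548) or knockout TNF replicate 1 (0.0752) or replicate 2 (0.191), the call was lost.

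**Figure D3:**
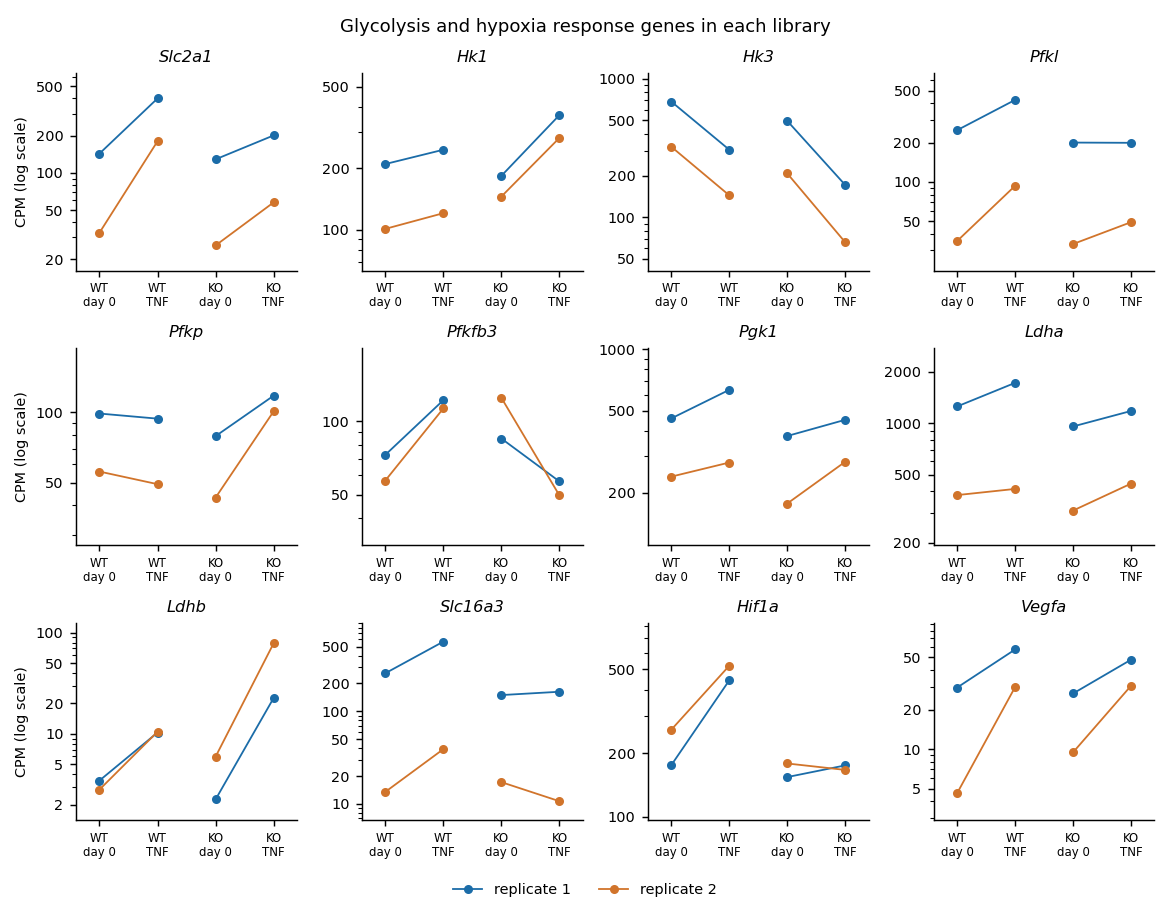
CPM (log axis) of 12 members in the 4 groups, with replicate 1 in blue and replicate 2 in orange. Slc2a1, Pfkl and Slc16a3 are higher in replicate 1 in every group, while the 2 Hif1a libraries with TNF in wild type (443 and 519) lie above the other 6.

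The enzymes on either side of phosphofructokinase, down to pyruvate kinase, passed no test in any contrast. Gpi1, the isomerase that precedes phosphofructokinase, ranged over 385 to 1278 CPM across the 8 libraries, the aldolase gene Aldoa over 752 to 2564, the triose isomerase gene Tpi1 over 152 to 777 and the pyruvate kinase gene Pkm over 751 to 2391. The kinase gene Pgk1 ranged over 177 to 634 CPM and the mutase gene Pgam1 over 25.3 to 146. All 6 were lower in replicate 2 in every group. In wild type their log2 differences with TNF were between 0.02 and 0.37, and in the knockout between -0.25 and 0.73. Gapdh ranged over 0.666 to 4.07 CPM and Eno1 over 0 to 0.0841, with its near copy Eno1b at 0.316 to 3.87. Genes of this pathway have many processed copies in the mouse genome, how reads shared between copies were counted was not given in the sources used here, and the levels of Gapdh, Eno1, Tpi1, Pgam1, Aldoa, Pgk1, Pkm and Ldha are therefore uncertain.

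Aldoc, the second aldolase gene, stood at 34.0 and 6.49 CPM in untreated wild-type libraries, 99.2 and 7.12 in wild type with TNF, 16.7 and 7.24 in untreated knockout libraries and 53.6 and 98.1 in the knockout with TNF. Replicate 1 was the higher in 3 groups, and replicate 2 in the knockout with TNF. The log2 differences with TNF were 0.83 ± 0.94 (limma adjusted p = 0.613 with the block, 0.958 without) in wild type and 2.66 ± 0.94 (limma adjusted p = 0.0842 with the block, 0.334 without) in the knockout. Although both knockout TNF libraries were above both day 0 libraries, the gene passed no test. Per kilobase Aldoa made up at least 93.5% of the 2 aldolases in every library.

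Ldhb encodes the heart-type subunit of lactate dehydrogenase, known for favouring the step from lactate to pyruvate (GRCm38 chromosome 6, 142490249 to 142507957, minus strand). It stood at 3.46 and 2.82 CPM in untreated wild-type libraries, 10.3 and 10.5 in wild type with TNF, 2.25 and 5.95 in untreated knockout libraries and 22.6 and 78.6 in the knockout with TNF. In each genotype both TNF libraries were above both day 0 libraries, and the 2 knockout TNF libraries were the highest. Ldhb rose in the knockout by 3.34 ± 0.50 (limma adjusted p = 0.00612 with the block, 0.0417 without), a 10.1-fold change that passed in both limma fits and in DESeq2 (adjusted p = 2.87e-05). It did not pass with group alone without a filter on low values (limma adjusted p = 0.0647) or in edgeR (0.0594). With the block leaving out any 1 library left the call in place, with a log2 difference from 2.62 without knockout TNF replicate 2 to 4.06 without knockout TNF replicate 1. With group alone it ran from 2.46 to 4.23 without the same libraries, and the call was lost without any of the 7 libraries other than knockout TNF replicate 1 (limma adjusted p = 0.0689 to 0.18). In wild type the difference was 1.59 ± 0.50 (limma adjusted p = 0.0959 with the block, 0.415 without), and after TNF the knockout stood 1.97 ± 0.50 (limma adjusted p = 0.0606 with the block, 0.323 without) above wild type, neither of which passed. Ldha, the muscle-type subunit and a HIF-1 target, stood at 1254 and 379.9 CPM in untreated wild-type libraries, 1724 and 413 in wild type with TNF, 958 and 309 in untreated knockout libraries and 1181 and 444 in the knockout with TNF. Its differences with TNF were 0.29 ± 0.21 (limma adjusted p = 0.407 with the block, 0.99 without) and 0.41 ± 0.21 (limma adjusted p = 0.183 with the block, 0.899 without). Per kilobase Ldhb made up 0.579 and 1.54% of the 2 in wild type at day 0, 1.25 and 5.10% with TNF, 0.493 and 3.91% in the knockout at day 0 and 3.88 and 27.2% with TNF. With the longest transcript in place of all exons the last share was 19.8%. These shares also rest on the level of Ldha, which is uncertain as said above.

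Slc16a3 encodes MCT4, which exports lactate from glycolytic cells (GRCm38 chromosome 11, 120948480 to 120960868, plus strand). It stood at 257 and 13.5 CPM in untreated wild-type libraries, 565 and 39.1 in wild type with TNF, 149.7 and 17.2 in untreated knockout libraries and 163 and 10.7 in the knockout with TNF. Replicate 2 was far below replicate 1 in every group, and so all pairs of groups overlapped. Within replicates Slc16a3 rose with TNF in wild type by 1.32 ± 0.26 (limma adjusted p = 0.03 with the block, 0.961 without) and differed by -0.27 ± 0.26 (limma adjusted p = 0.484 with the block, 0.973 without) in the knockout. The wild-type call was lost without wild-type day 0 replicate 2 (0.192) or wild-type TNF replicate 1 (0.122) or replicate 2 (0.165). With TNF in both, the knockout was lower than wild type, with a log2 difference of -1.81 ± 0.26 (limma adjusted p = 0.0208 with the block, 0.931 without), a call lost without wild-type TNF replicate 1 (0.0664) or replicate 2 (0.166) or knockout TNF replicate 2 (0.128). The other carrier, MCT1 (Slc16a1), ranged over 18.6 to 52.5 CPM and passed no test.

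Hif1a (GRCm38 chromosome 12, 73901375 to 73947530, plus strand) stood at 175 and 258 CPM in untreated wild-type libraries, 443 and 519 in wild type with TNF, 154 and 179 in untreated knockout libraries and 175 and 167 in the knockout with TNF. The 2 wild-type TNF libraries were the highest of the 8, and the knockout stayed between 154 and 179 CPM at both times. It rose with TNF in wild type by 1.17 ± 0.18 (limma adjusted p = 0.0142 with the block, 0.111 without), and DESeq2 called it too (adjusted p = 0.0117). In the knockout the difference was 0.04 ± 0.18 (limma adjusted p = 0.886 with the block, 0.967 without). The wild-type call in the blocked limma fit was lost without wild-type day 0 replicate 1 (0.0524) or wild-type TNF replicate 1 (0.0687) or replicate 2 (0.11). After TNF the knockout was lower, with a log2 difference of -1.49 ± 0.18 (limma adjusted p = 0.018 with the block, 0.153 without), again also in DESeq2 (0.00218), and the limma call was lost without wild-type TNF replicate 2 (0.16) or knockout TNF replicate 2 (0.101). The difference of the TNF responses was -1.13 ± 0.26 (limma adjusted p = 0.127 with the block, 0.818 without).

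Of the prolyl hydroxylases that mark HIF-1α for destruction, Egln1 ranged over 33.0 to 118 CPM and passed no test. Egln3, itself a HIF target, stood at 9.04 and 0.594 CPM in untreated wild-type libraries, 28.4 and 0.509 in wild type with TNF, 3.39 and 1.07 in untreated knockout libraries and 4.77 and 0.211 in the knockout with TNF. It was at a few CPM or more in replicate 1 and near the detection limit in replicate 2, with differences of 0.74 ± 0.74 (limma adjusted p = 0.559 with the block, 0.987 without) in wild type with TNF and -1.48 ± 0.74 (limma adjusted p = 0.251 with the block, 0.948 without) in the knockout after TNF.

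Among the other HIF targets, P4ha1 and P4ha2, subunits of the collagen prolyl hydroxylase, fell in the knockout. P4ha1 stood at 182 and 151 CPM in untreated wild-type libraries, 198 and 119 in wild type with TNF, 187 and 172 in untreated knockout libraries and 141 and 75.9 in the knockout with TNF. Both knockout TNF libraries were below both day 0 libraries, with a log2 difference of -0.79 ± 0.22 (limma adjusted p = 0.0435 with the block, 0.331 without) that was lost without any library but knockout TNF replicate 1 (limma adjusted p = 0.0531 to 0.293). P4ha2 stood at 35.5 and 8.05 CPM in untreated wild-type libraries, 24.2 and 2.25 in wild type with TNF, 37.0 and 5.60 in untreated knockout libraries and 11.8 and 2.16 in the knockout with TNF, with replicate 1 higher throughout. It fell in the knockout, with a log2 difference of -1.40 ± 0.30 (limma adjusted p = 0.0192 with the block, 0.699 without), lost without knockout day 0 replicate 1 (0.11) or replicate 2 (0.106) or knockout TNF replicate 1 (0.088) or replicate 2 (0.0577). In wild type the differences were -0.11 ± 0.22 and -1.09 ± 0.30 (SE with the block), and neither passed.

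Vegfa, the angiogenic growth factor and a classic HIF target, stood at 29.4 and 4.60 CPM in untreated wild-type libraries, 57.4 and 29.7 in wild type with TNF, 26.6 and 9.46 in untreated knockout libraries and 48.1 and 30.5 in the knockout with TNF. In each genotype both TNF libraries were above both day 0 libraries. The differences were 1.76 ± 0.43 (limma adjusted p = 0.0527 with the block, 0.546 without) in wild type and 1.24 ± 0.43 (limma adjusted p = 0.0801 with the block, 0.541 without) in the knockout, and neither passed. Ndrg1, a stress-response gene, stood at 64.7 and 15.4 CPM in untreated wild-type libraries, 25.2 and 4.03 in wild type with TNF, 26.7 and 11.2 in untreated knockout libraries and 15.6 and 13.5 in the knockout with TNF. It differed by -1.58 ± 0.51 (limma adjusted p = 0.102 with the block, 0.658 without) with TNF in wild type. Pdk1, whose kinase blocks pyruvate dehydrogenase, stood at 149 and 60.9 CPM in untreated wild-type libraries, 203 and 49.3 in wild type with TNF, 115 and 55.3 in untreated knockout libraries and 149.7 and 252 in the knockout with TNF. Both knockout TNF libraries were above both day 0 libraries, by 1.28 ± 0.58 (limma adjusted p = 0.153 with the block, 0.451 without), and after TNF the knockout differed from wild type by 0.95 ± 0.58 (limma adjusted p = 0.342 with the block, 0.825 without). The mitophagy receptor genes Bnip3 and Bnip3l ranged over 18.2 to 71.3 and 48.5 to 127 CPM, the respiratory chain factor gene Higd1a over 9.15 to 24.5, the mTORC1 inhibitor gene Ddit4 over 0.475 to 5.15 and Ankrd37 over 0.211 to 3.70. These 5 passed no test.

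The median log2 difference of the 34 members was 0.33 with TNF in wild type, 0.26 with TNF in the knockout, -0.20 for knockout against wild type at day 0 and -0.31 after TNF. Over all genes tested these medians were -0.12, -0.10, 0.01 and 0.02. With TMM scaling the all-gene median in wild type moved to -0.01 and the members' to 0.44, and the share of genes with a positive difference from 38.9% to 49.1%. In wild type 22 members were higher with TNF in both replicates and 4 lower in both, where 27.5% and 43.6% of all genes were. In the knockout 18 were higher and 10 lower in both (33.3% and 45.4% of all genes). After TNF, 4 members were higher and 16 lower in the knockout in both replicates, and at day 0 the same counts held, 4 and 16. The shares of all genes were 38.1% and 35.4% after TNF and 31.8% and 25.9% at day 0. With group alone, leaving out 1 library turned the sign of each of these medians. That of TNF in wild type became -0.37 where replicate 2 of wild type at day 0 was left out and -0.46 without wild-type TNF replicate 1, and that of TNF in the knockout -0.32 without knockout day 0 replicate 2 and -0.23 without knockout TNF replicate 1. At day 0 it became 0.45 without wild-type replicate 1 and 0.35 without knockout replicate 2, and after TNF 0.52 without wild-type replicate 1 and 0.19 without knockout replicate 2. With the block and 1 library left out the signs held, at 0.07 to 0.47, 0.10 to 0.55, -0.32 to -0.06 and -0.47 to -0.10 in the same order. The comparisons share control libraries, so these counts are not independent of each other.

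By groups free of overlap, 7 members were higher with TNF in wild type and Hk3 lower, beside 14.8% and 22.6% of all genes. These 7 were Slc2a1, Pfkfb3, Pfkfb4, Ldhb, Hif1a, Vegfa and Bnip3l. In the knockout 8 were higher (Hk1, Pfkp, Pfkm, Aldoc, Ldhb, Vegfa, Bnip3 and Pdk1) and 5 lower (Hk2, Hk3, Pfkfb3, Pfkfb4 and P4ha1), beside 20.4% and 25.2%. After TNF, Hk1, Pfkp and Ldhb were higher in both knockout libraries than in both wild-type ones and Hif1a, Pfkfb3 and Pfkfb4 lower, beside 18.8% and 16.1% of all genes. At day 0 Hk2 and Pfkfb3 were higher in the knockout and none lower, beside 9.86% and 8.66%.

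Pyruvate reaches the mitochondrion through the carrier subunits MPC1 and MPC2 and is turned into acetyl-CoA by the pyruvate dehydrogenase complex, which PDK kinases switch off and PDP phosphatases switch on. Of the 12 genes listed for this step 11 were tested. In the knockout 6 rose with TNF with group alone and the same 6 and Pdk3 with the block, where Pdp1 fell. Of all genes 3.09% were higher with group alone, and 12.2% were higher and 13.7% lower with the block. In wild type 0 passed with group alone and Pdp1 fell with the block, beside 1.18% and 10.3% of all genes passing. The median log2 difference was 1.36 in the knockout and 0.38 in wild type, against -0.10 and -0.12 over all genes.

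Pdhb, the β subunit of the first enzyme of the complex, stood at 49.7 and 45.6 CPM in untreated wild-type libraries, 86.8 and 57.5 in wild type with TNF, 51.2 and 47.6 in untreated knockout libraries and 192 and 229.9 in the knockout with TNF. Both knockout TNF libraries were above the other 6, and the rise was 2.08 ± 0.21 (limma adjusted p = 0.00189 with the block, 0.0126 without). The carrier gene Mpc2 rose by 1.87 ± 0.20 (limma adjusted p = 0.00199 with the block, 0.0257 without), and Dlat, the second enzyme, by 1.69 ± 0.15 (limma adjusted p = 0.00143 with the block, 0.0227 without). Dld, the third enzyme, rose by 1.62 ± 0.14 (limma adjusted p = 0.00134 with the block, 0.0275 without). Pdha1, the α subunit, rose by 1.61 ± 0.20 (limma adjusted p = 0.00335 with the block, 0.0206 without) and the binding subunit gene Pdhx by 1.202 ± 0.16 (limma adjusted p = 0.00388 with the block, 0.0471 without), both named after their values were seen. With the block these 6 calls were kept without any 1 library. With group alone Pdhb was lost without 3 libraries, knockout day 0 replicate 1 (0.0651) or replicate 2 (0.0941) or knockout TNF replicate 2 (0.0975). Mpc2, Pdha1, Dlat and Dld were lost without any of the 6 libraries outside wild type with TNF (limma adjusted p up to 0.167), and Pdhx without any of the 8 (up to 0.263). Pdk3 rose by 1.35 ± 0.39 (limma adjusted p = 0.0482 with the block, 0.229 without), lost without any library but knockout TNF replicate 1 (limma adjusted p = 0.0623 to 0.285) and, with the block, under TMM scaling (0.0597), median-ratio scaling (0.0542) or edgeR (0.0555). Pdp1 fell, with a log2 difference of -0.85 ± 0.23 (limma adjusted p = 0.0381 with the block, 0.372 without), lost without wild-type day 0 replicate 1 (0.0568) or replicate 2 (0.0574), knockout day 0 replicate 2 (0.279) or knockout TNF replicate 1 (0.102) or replicate 2 (0.167). In wild type Pdp1 fell, with a log2 difference of -1.07 ± 0.23 (limma adjusted p = 0.0357 with the block, 0.404 without), lost without wild-type day 0 replicate 1 (0.102) or replicate 2 (0.187) or wild-type TNF replicate 1 (0.0522) or replicate 2 (0.23).

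After TNF the same 6 genes were higher in the knockout than in wild type under the block, by 0.83 (Pdhx) to 1.56 (Pdhb) on the log2 scale, with limma adjusted p from 0.0191 to 0.0311. Of all genes 5.53% were higher in that fit. With group alone the 6 genes did not pass (limma adjusted p = 0.147 to 0.273). Each call was lost without wild-type TNF replicate 2 or knockout TNF replicate 2, those of Dld and Pdhx also without wild-type TNF replicate 1, and that of Pdhx without knockout TNF replicate 1 or either knockout day 0 library (0.0528 to 0.197 in all). The osteoclast marker sum, given above, was also highest in the knockout with TNF. What part it had in this result was not tested.

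**Figure D4:**
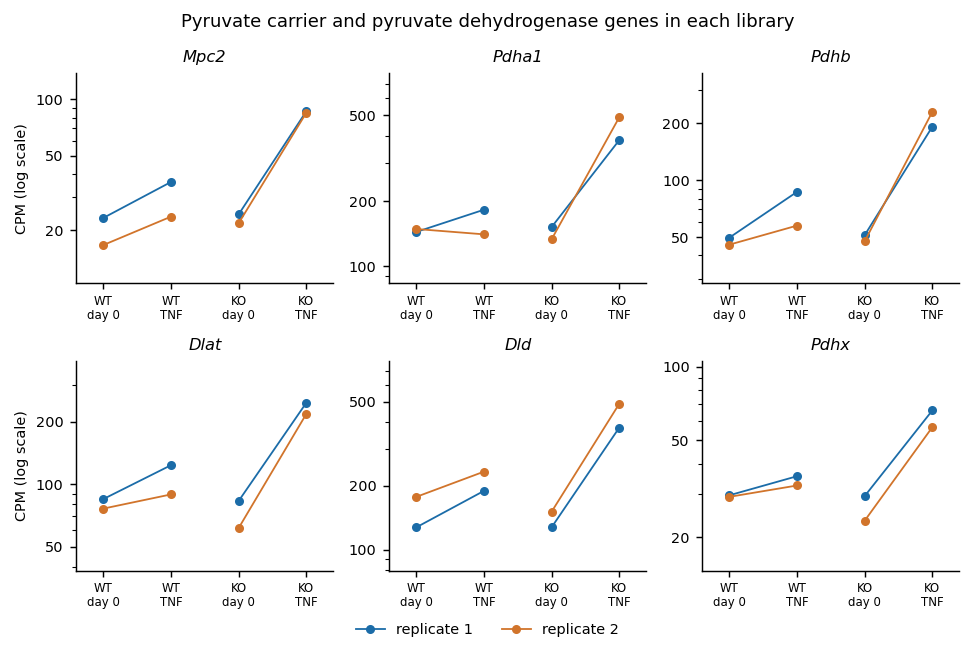
CPM of 6 genes of pyruvate entry into mitochondria in the 4 groups, with 1 point per library coloured by replicate. In each panel the 2 knockout TNF libraries lie above the 2 knockout day 0 libraries.

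Of 9 further glucose transporter genes 4 were tested. With the block 1 rose and 1 fell with TNF in wild type, beside 10.3% of all genes passing. In the knockout 1 rose and 2 fell, beside 25.9%. With group alone 1 fell in each genotype, beside 1.18% and 5.1% of all genes passing. For knockout against wild type after TNF 1 passed with the block, beside 9.28%. Slc2a3, which encodes GLUT3, stood at 33.5 and 27.3 CPM in untreated wild-type libraries, 4.77 and 3.14 in wild type with TNF, 29.1 and 16.3 in untreated knockout libraries and 1.83 and 1.48 in the knockout with TNF, with every TNF library below every day 0 library. It fell, with a log2 difference of -2.81 ± 0.23 (limma adjusted p = 0.00211 with the block, 0.0386 without) in wild type and -3.38 ± 0.23 (limma adjusted p = 0.000736 with the block, 0.0109 without) in the knockout. With the block no single library decided these, and with group alone the wild-type call was lost without any 1 of the 8 libraries (limma adjusted p up to 0.261) and the knockout call without either knockout day 0 library or knockout TNF replicate 2 (up to 0.0752). The lysosomal carrier gene Slc2a6 rose with the block by 3.90 ± 0.65 (limma adjusted p = 0.0172 with the block, 0.121 without) in wild type, lost without wild-type replicate 2 at either time (up to 0.128), and by 2.45 ± 0.65 (limma adjusted p = 0.0363 with the block, 0.196 without) in the knockout, lost without any knockout library (up to 0.203). Slc2a9, a urate and hexose carrier, fell in the knockout, with a log2 difference of -1.62 ± 0.30 (limma adjusted p = 0.0115 with the block, 0.07 without), lost without knockout replicate 2 at either time (up to 0.101). After TNF, Slc2a3 was the 1 of the 4 to pass with the block, lower in the knockout, with a log2 difference of -1.03 ± 0.23 (limma adjusted p = 0.0459 with the block, 0.422 without), a call lost without any of the 8 libraries (up to 0.233).

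Of 9 genes of glycogen and glucose phosphate metabolism, all tested, 0 passed with TNF in wild type and 1 in the knockout with group alone, and 3 rose and 1 fell in wild type and 5 rose and 2 fell in the knockout with the block. Of all genes 10.3% passed with the block in wild type and 25.9% in the knockout. The brain-type phosphorylase gene Pygb was the one lower with group alone, with a log2 difference of -1.60 ± 0.20 (limma adjusted p = 0.00322 with the block, 0.0363 without). That fit lost the call without any of the 6 libraries outside wild type with TNF (limma adjusted p up to 0.208), and the blocked fit kept it without any 1 library. The branching enzyme gene Gbe1 rose by 1.84 ± 0.28 (limma adjusted p = 0.0124 with the block, 0.0632 without) in wild type, lost without wild-type replicate 2 at either time (up to 0.0866). The glycogen synthase gene Gys1 rose in the knockout by 1.84 ± 0.34 (limma adjusted p = 0.0113 with the block, 0.192 without), lost without either knockout day 0 library or knockout TNF replicate 2 (up to 0.0742). With the block Gbe1 was also called higher with TNF in the knockout, and Pygb lower in wild type. With 1 library left out, these log2 differences were 1.14 to 1.63 and -1.18 to -0.75. After TNF 1 gene of the list was higher and 2 lower in the knockout with the block, beside 9.28% of all genes passing, and 0 passed with group alone.

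Of 8 pentose phosphate genes, all tested, 0 passed in either genotype with group alone. With the block 2 rose in the knockout with TNF and 0 in wild type, led by H6pd, the endoplasmic reticulum form of the first enzyme, at 1.17 ± 0.21 (limma adjusted p = 0.0107 with the block, 0.0568 without). This was lost without either knockout day 0 library or knockout TNF replicate 2 (limma adjusted p up to 0.0933). The 2 of 8 genes stand against 12.2% of all genes higher in that fit and 25.9% passing in either direction. After TNF 2 were lower in the knockout with the block, beside 3.75% of all genes. They were G6pdx, the rate-limiting enzyme of the pathway, and Pgd, a later enzyme of it, both named after their values were seen. The log2 difference was -1.19 ± 0.19 (limma adjusted p = 0.0236 with the block, 0.176 without) for G6pdx. For Pgd it was -0.89 ± 0.20 (limma adjusted p = 0.0457 with the block, 0.484 without). Leaving out replicate 2 of either TNF group ended the G6pdx call (up to 0.184). Leaving out any library ended that of Pgd (up to 0.304). Of 8 genes of gluconeogenesis and bypass reactions 4 were tested and 0 passed with group alone. With the block 1 rose with TNF in wild type, beside 10.3% of all genes passing, and 1 rose and 1 fell in the knockout, beside 25.9%. After TNF 1 was lower in the knockout, beside 9.28%. The pyruvate carboxylase gene Pcx rose with the block in both genotypes, by 2.93 ± 0.22 (limma adjusted p = 0.00158 with the block, 0.134 without) and 2.17 ± 0.22 (limma adjusted p = 0.00176 with the block, 0.149 without), calls that held without any 1 library. The mitochondrial PEP carboxykinase gene Pck2 fell in the knockout, with a log2 difference of -1.21 ± 0.30 (limma adjusted p = 0.0286 with the block, 0.397 without), lost without knockout TNF replicate 1 or either replicate 2 of the knockout (up to 0.199). After TNF, Pcx was lower in the knockout, with a log2 difference of -1.44 ± 0.22 (limma adjusted p = 0.022 with the block, 0.541 without), lost without replicate 2 of either TNF group (up to 0.176). Of 9 genes of the hexosamine and serine branches 8 were tested, and 0 passed with group alone. With the block 1 rose in the knockout, against 12.2% of all genes higher in that fit. This was Gfpt1, the first enzyme of hexosamine synthesis, which rose by 1.59 ± 0.35 (limma adjusted p = 0.0205 with the block, 0.0705 without), a call lost without replicate 2 of either knockout group.

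Of 13 HIF subunits and regulators other than the members 12 were tested. With the block 1 rose and 1 fell with TNF in wild type, beside 10.3% of all genes passing, and 1 rose and 2 fell in the knockout, beside 25.9%. With group alone 1 rose and 1 fell in each genotype, beside 1.18% and 5.1%. Epas1, which encodes HIF-2α, fell with TNF, with a log2 difference of -3.24 ± 0.42 (limma adjusted p = 0.00774 with the block, 0.0386 without) in wild type and -2.26 ± 0.42 (limma adjusted p = 0.0118 with the block, 0.0482 without) in the knockout, opposite in direction to Hif1a in wild type. With the block the wild-type call was lost without wild-type day 0 replicate 2 (limma adjusted p up to 0.0518) and the knockout call without either knockout day 0 library or knockout TNF replicate 1 (up to 0.0743). With group alone the wild-type call was lost without any library but wild-type TNF replicate 1, and the knockout call without any but the 2 of wild type with TNF (up to 0.284 and 0.217). Arnt2, a paralogue of the HIF-1β subunit gene, stood at 0.51 and 0.223 CPM in untreated wild-type libraries, 7.49 and 4.24 in wild type with TNF, 0.143 and 0.178 in untreated knockout libraries and 4.57 and 3.27 in the knockout with TNF. It rose by 2.85 ± 0.31 (limma adjusted p = 0.00459 with the block, 0.0416 without) and 2.73 ± 0.31 (limma adjusted p = 0.00257 with the block, 0.0226 without). The blocked calls of Arnt2 held without any 1 library, and those with group alone were lost without any of the 8 libraries in wild type (up to 0.298) and any of 6 in the knockout, all but wild type with TNF (up to 0.132). The coactivator gene Ep300 fell in the knockout with the block, with a log2 difference of -0.50 ± 0.13 (limma adjusted p = 0.0396 with the block, 0.383 without), lost without any of the 8 libraries (up to 0.205). Over these 7 lists and 2 more, 102 genes tested in all, limma passed 0 for knockout against wild type at day 0 in either fit (1 with group alone and 9 with the block at an unadjusted p under 0.05, 0 past the threshold in DESeq2). For the difference of the TNF responses it passed 0 as well (9 and 19 at an unadjusted p under 0.05), and DESeq2 passed 3. Over all 12194 genes the unadjusted counts were 164 and 729 at day 0 and 689 and 2192 for the difference. DESeq2 passed 24 and 78 of all genes.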

How the data were processed

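Poly-A libraries were made from total RNA, per the labels' protocols. The authors deposited 1 table of CPM. The submitters' processing notes name fastp, HISAT2, HTSeq, edgeR and genome build mm10. Tool versions, settings and annotation are not given in the sources used here. Whole reads recovered from the CPM for 100% of values (within 0.01 of a whole number) gave library sizes and served edgeR and DESeq2 as alternatives. DESeq2 was fitted by group alone, with no block. Genes were kept where 2 or more libraries reached 1 CPM, which left 12194 (49.9%). Their log2(CPM + 0.5) values were fitted with limma (lmFit, trended eBayes, 2-sided) by group alone, leaving 4 residual degrees of freedom. Adjustment was by Benjamini-Hochberg over all these genes per contrast, with a threshold of 0.05. The pseudocount of 0.5 shrinks the changes of genes with few reads. Standard errors (±) beside log2 differences come from the blocked fit, and the differences themselves do not depend on the block.

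The replicate numbers were taken to pair the libraries, since the series states 2 independent experiments and deviations correlated in all 6 pairs of groups (r from 0.577 to 0.805, Pearson, with genes as points that are not independent). The blocked fit has 3 residual degrees of freedom. Members and pathway lists were chosen with earlier results of these data known. All 35 members are named. Values per library are given for members past the threshold in any contrast and fit, for those with a log2 difference of at least 1 in size in a TNF or knockout contrast, and for 7 fixed by name. Up to 4 genes a list were named by size among those past the threshold with TNF. Exon lengths and positions are from GENCODE on GRCm38, promoters from RefSeq. Alternatives were other pseudocounts, filters and scalings, the block, edgeR, DESeq2, each library left out, and transcript length. Tools were limma 3.58.1, edgeR 4.0.16 and DESeq2 1.42.0 in R 4.3.3.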

Additional observations from a re-analysis of the deposited data

Results flagged for a closer look

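Pfkfb3 and Pfkfb4 were flagged because TNF moved every library of one genotype one way and every library of the other the opposite way. Free of overlap, 14.8% of all genes were higher with TNF in wild type and 25.2% lower in the knockout. The share of all genes with both was not counted. The tests below use the same data that picked the genes. Wild-type libraries held 72.7 and 57.1 CPM of Pfkfb3 untreated and 122 and 113 with TNF, and knockout libraries 84.8 and 124 and then 56.6 and 49.6. The difference of the 2 responses, knockout minus wild type on the log2 scale, was -1.80 ± 0.33 (SE with the block). The limma test of that difference gave an adjusted p of 0.641 with group alone and 0.106 with the block, and DESeq2 gave 0.024.

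For Pfkfb4 the libraries read 43.9 and 43.9 CPM and 51.0 and 66.3 in wild type, and 33.7 and 54.2 and 26.3 and 32.7 in the knockout. The difference of responses was -0.94 ± 0.27. It passed in no fit, with limma adjusted p of 0.958 and 0.165 with the block, and 0.883 in DESeq2.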

How the results depend on the processing

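Counts of members past the threshold depended on the replicate block. With TNF in wild type the count was 0 with group alone, 5 with the block, 5 with the block and TMM or median-ratio scaling, 4 in edgeR with the block and 1 in DESeq2, and with 1 library left out it was 0 throughout with group alone and, with the block, 0 without wild-type TNF replicate 2, 1 or 2 without wild-type day 0 replicate 2 or wild-type TNF replicate 1, and 5 or 7 without any other. In the knockout it was 1 with group alone, 8 with the block under each scaling and in edgeR, and 0 without a filter or in edgeR without the block. Leaving out 1 library gave 0 to 10, with 0 or 1 with group alone and, with the block, 2 or 3 without knockout day 0 replicates 2 and 1, 2 without knockout TNF replicate 2, 7 or 8 without a wild-type library and 10 without knockout TNF replicate 1. After TNF the knockout comparison gave 0 with group alone, 7 with the block, 5 with the block and TMM or median-ratio scaling, 5 in edgeR with the block and 2 in DESeq2, and with the block and 1 library left out 0 without either replicate 2 with TNF, 2 without wild-type TNF replicate 1 and 4 or 6 without any other, of which the 6 without knockout TNF replicate 1 were 3 higher and 3 lower. At day 0 the count was 0 under every alternative run, and for the difference of the responses it was 0 to 1 with 1 library left out and 1 in DESeq2. Where 1 library of a group was left out, the lone library was assumed to vary like those of the other groups. With the block, leaving out either wild-type TNF library also lowered the number of all genes past the threshold. This held for TNF in wild type and for the knockout after TNF, so a smaller count of members there is not particular to them. Without the block, pseudocounts of 0.1 and 2, a filter of 5 CPM and both scalings changed none of these counts beyond 1.5 times. Of 20 calls of members, in either limma fit, 4 changed sign with group alone and 1 library left out, a setting that sets libraries of different replicate numbers against each other. For TNF in wild type the log2 difference of Slc16a3 became -0.79 where replicate 2 of wild type at day 0 was left out and -0.60 without wild-type TNF replicate 1, and that of Pfkl -0.32 and -0.0080. For the knockout against wild type after TNF, without wild-type TNF replicate 1 or knockout TNF replicate 2, that of Slc16a3 became 0.11 and 0.12 and that of Pfkl 0.087 and 0.00036. Of 77 calls of pathway genes 2 did so, Pgls and Mif with TNF in the knockout (-0.29 and -0.55 without knockout day 0 replicate 2, -0.037 and -0.40 without knockout TNF replicate 1). With the block and 1 library left out, and under the alternatives that kept all libraries, 0 of these calls changed sign. Lengths of the longest transcript in place of all exons moved 13 of 56 isozyme shares by more than 1 SD of the 2 libraries. Members with libraries under 5 CPM, such as Egln3, Ankrd37, Ddit4 and Gapdh, are limited by depth and by the pseudocount. The causes of these changes were not tested.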

Other observations

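Of 35 further HIF targets not among the members, 32 were tested. With TNF in the knockout Bhlhe40, a transcriptional repressor, rose by 3.31 ± 0.47 (limma adjusted p = 0.00492 with the block, 0.0331 without) on the log2 scale, and Tfrc, the transferrin receptor gene, by 2.90 ± 0.42 (limma adjusted p = 0.00527 with the block, 0.0206 without). Wsb1, a ubiquitin ligase subunit gene, fell, with a log2 difference of -1.18 ± 0.18 (limma adjusted p = 0.00685 with the block, 0.047 without). Upp1, a uridine phosphorylase gene, rose with the block by 3.92 ± 0.56 (limma adjusted p = 0.0052 with the block, 0.0681 without). With the block 5 rose and 3 fell in each genotype, and after TNF 1 was higher and 3 lower in the knockout. These are 8 of 32 with TNF in each genotype, against 10.3% of all genes in wild type and 25.9% in the knockout, and 4 of 32 after TNF, against 9.28%. With the block the knockout calls of Bhlhe40, Tfrc and Upp1 held without any 1 library, and that of Wsb1 was lost without knockout day 0 replicate 2. With group alone Bhlhe40 was lost without any library but the 2 of wild type at day 0 (up to 0.184), Tfrc without knockout day 0 replicate 2 or either knockout TNF library (up to 0.126) and Wsb1 without any library (up to 0.25). The median of the 32 was 0.20 in the knockout and 0.13 in wild type, against -0.10 and -0.12 over all genes.

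Of 15 genes known to steer glycolytic transcription or growth signalling 14 were tested. With the block 2 rose and 2 fell with TNF in wild type, beside 10.3% of all genes passing, and 3 rose and 1 fell in the knockout, beside 25.9%. With group alone 1 fell in each genotype, beside 1.18% and 5.1%. Pparg, a nuclear receptor of lipid metabolism, stood at 29.6 and 36.1 CPM in untreated wild-type libraries, 2.13 and 1.19 in wild type with TNF, 32.1 and 44.2 in untreated knockout libraries and 1.52 and 1.16 in the knockout with TNF. It fell with TNF, with log2 differences of -3.98 ± 0.31 (limma adjusted p = 0.00199 with the block, 0.0151 without) in wild type and -4.38 ± 0.31 (limma adjusted p = 0.000798 with the block, 0.00513 without) in the knockout. With the block both calls held without any 1 library, while with group alone the wild-type call was lost without either wild-type day 0 library or wild-type TNF replicate 2 (limma adjusted p up to 0.158) and the knockout call without knockout day 0 replicate 2 (0.0526). The oxysterol receptor gene Nr1h3 rose with the block by 2.32 ± 0.29 (limma adjusted p = 0.00701 with the block, 0.358 without) and 1.58 ± 0.29 (limma adjusted p = 0.0113 with the block, 0.413 without), the latter lost without knockout day 0 replicate 1 (0.0658). Arrdc4, a relative of the glucose sensor gene Txnip, rose with the block by 2.11 ± 0.31 (limma adjusted p = 0.0118 with the block, 0.0724 without) and 1.49 ± 0.31 (limma adjusted p = 0.0175 with the block, 0.0907 without). The Arrdc4 calls were lost without wild-type replicate 2 at either time (up to 0.0819), and without either knockout day 0 library or knockout TNF replicate 2 (up to 0.128). Esrra, a nuclear receptor of mitochondrial genes, rose in the knockout with the block by 1.17 ± 0.15 (limma adjusted p = 0.00393 with the block, 0.59 without), and that call held without any 1 library.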
